A study of Macaca mulatta with 56 samples.

Results

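Genes of the perineuronal net and the reelin gene are described here, 9 of the 17807 Ensembl identifiers in the table. They were chosen by gene symbol, with 1 identifier each: the lecticans ACAN, NCAN, BCAN and VCAN, the link proteins HAPLN1 and HAPLN4, the glycoprotein TNR, the receptor phosphatase PTPRZ1, and RELN. The animals were 14 female rhesus macaques (Macaca mulatta) aged 19.4 to 23.2 years, and mRNA was sequenced from 4 regions of each brain, the amygdala, the hippocampus, and the occipital and prefrontal cortex. All 14 ate a Western-style diet (fat gave 36% and sugars 18.5% of its calories) and lost their ovaries and uterus about 6 weeks after starting it, so no group had intact ovaries or ate chow. In the HT group, 7 animals carried capsules that released estradiol (serum estradiol 82.1 ± 0.9 pg/mL). In the OvH group, 7 animals carried empty capsules (6.6 ± 0.2 pg/mL). The kind of error on these serum values is not given. The series text gives 30 months as the length of the study and 32 months for the serum average. Each animal gave 1 library per region, so there were 56 libraries in 8 groups of 7. The comparison of HT with OvH asks what estradiol replacement does to the brain transcriptome of old animals on this diet.

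Perineuronal nets are lattices of extracellular matrix that wrap the cell body and proximal dendrites of some neurons, most densely the fast-spiking interneurons that contain parvalbumin. In a net, lecticans (proteoglycans that carry chondroitin sulfate chains) are held on hyaluronan by link proteins and are crosslinked at their other end by tenascin-R, the product of TNR. Aggrecan (ACAN) is the lectican most specific to nets, while neurocan (NCAN), brevican (BCAN) and versican (VCAN) also lie in the looser matrix around neurons, astrocytes and myelinated axons. PTPRZ1, made mostly by astrocytes and oligodendrocyte precursors, is a receptor phosphatase whose outer part, also released as phosphacan, binds tenascin-R. Reelin (RELN) is a secreted matrix protein that guides neurons in development and acts on synapses in the adult, where GABA neurons are its main source. It signals through the receptors VLDLR and LRP8 to the adaptor DAB1.

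In the amygdala the 9 rows were used as named. Under 1 identifier the table does not always hold the same transcript in amygdala and elsewhere: MBP, the main myelin protein gene, had a mean log2 level of 19.02 in amygdala and 0 in the other regions. A row was therefore used outside the amygdala only where its mean log2(value + 1) over the other 42 libraries lay within 2 (4-fold) of that in the amygdala, and 8 of the 9 rows met this. The differences, other regions minus amygdala on the log2 scale, were -0.02 for RELN, 0.05 for TNR, 0.12 for VCAN, 0.42 for BCAN, 0.60 for NCAN, -0.83 for PTPRZ1, -1.38 for HAPLN1 and 1.72 for ACAN. The row of HAPLN4 differed by -8.96 and held between 0 and 5.16 normalized counts outside the amygdala, so HAPLN4 is described in amygdala alone. With a limit of 1, ACAN and HAPLN1 would also be left out and 6 rows would remain. Over all identifiers 75.9% met the limit of 2, and 42.7% still did when rows were moved by 1 place, so meeting it is weak evidence that a row carries its name. Levels are not compared between amygdala and the other regions.

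The libraries held 34.63 M to 93.34 M reads (megareads, median 59.88 M). The upper quartile was the same in every library, and the normalized totals were 62.44 M to 75.84 M in HT amygdala against 55.91 M to 69.1 M in OvH amygdala. SNAP25, a marker of neurons, had a mean log2 level of 17.41 to 18.01 in the 4 regions, and AQP4, a marker of astrocytes, 13.58 to 15.17. In hippocampus, the libraries of animals 30 and 43 stood apart from the other 12 on the leading axis of variation (coordinates 0.658 and 0.446, against -0.365 to 0.121), and those of animals 33 and 40 held the most RNA of choroid plexus markers (summed levels 1326089 and 1463193, against 49644 or less in the other 12). The treatment differences in hippocampus are given with and without each pair, and the region counts without all 4 animals. The tissue was bulk, so fewer cells of a type and less RNA per cell cannot be told apart.

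**Figure D1:**
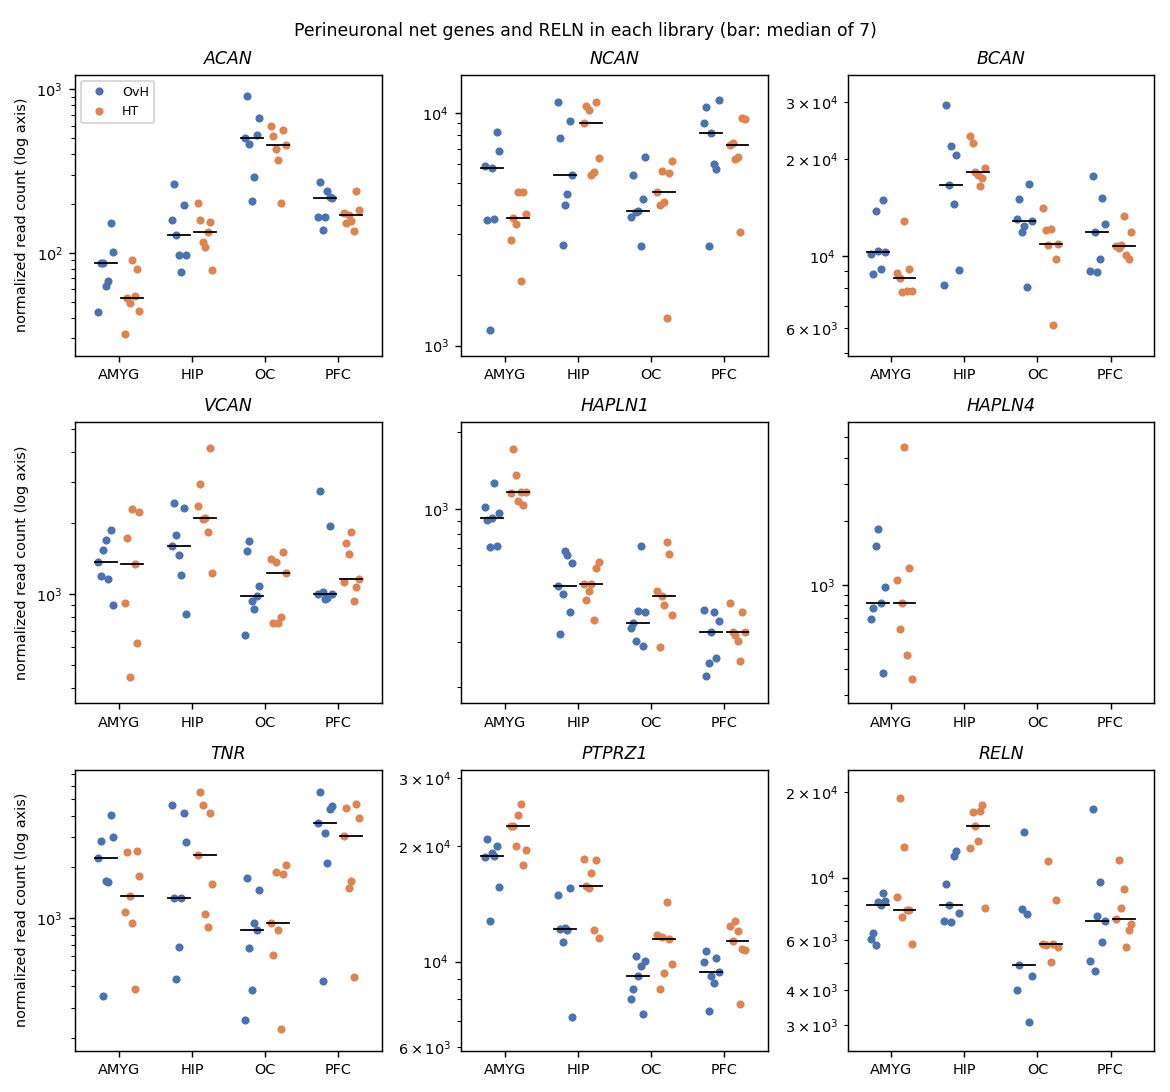
Normalized read count (log axis) of each member in every library of amygdala (AMYG), hippocampus (HIP), occipital cortex (OC) and prefrontal cortex (PFC), 1 point per animal, OvH in blue and HT in orange, with a bar at the median of 7; HAPLN4 is drawn in amygdala alone. Outside the amygdala ACAN was highest in occipital cortex. TNR and, in amygdala, HAPLN4 spread over more than 9-fold, and the HT and OvH points overlapped for every member in every region.

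Estradiol treatment moved none of the 9 genes past the threshold in amygdala. The test was limma on log2(value + 1), adjusted over all 16129 identifiers tested, with an adjusted p under 0.05 as the threshold. There, 0 of 9 members passed, where 6.89% of all identifiers did, and 2 of the 9 had an unadjusted p under 0.05, as had 21.5% of all identifiers. The HT values were higher for 4 members and lower for 5, with a median log2 difference of -0.21 over the members and 0.01 over all identifiers. Of 13 pan-neuronal markers there 11 were lower in HT (median -0.36), with 2 passing as lower and 0 as higher. Of 9 oligodendrocyte precursor markers 8 were lower (median -0.21) and 0 passed. Of 10 astrocyte markers 6 were lower (median -0.08) and 1 passed as higher. Of 18 GABA neuron markers 10 were lower (median -0.06) and 3 passed as higher. Their part in the member differences was not tested. In hippocampus, occipital cortex and prefrontal cortex 0 of 8 members passed, and so did 0% of all identifiers in each. At an unadjusted p under 0.05 there were 2, 1 and 0 of 8 members in these regions. Over all identifiers 335, 303 and 603 were under it, or 2.1%, 1.9% and 3.7% of those tested. HT was higher for 6 members and lower for 2 in hippocampus (median 0.42). The split was 5 and 3 in occipital (median 0.10) and 4 and 4 in prefrontal cortex (median -0.02). edgeR and DESeq2 on reads recovered from the values also passed 0 members in each of the 4 regions. Over all identifiers edgeR passed 0 in the last 3 regions and DESeq2 passed 12, 0 and 6. The amygdala calls were 994 higher and 118 lower in HT, but 617 and 1013 with equal totals and 675 and 343 by edgeR, so their direction depends on the scaling. No member had HT and OvH groups without overlap in any region. The share of all identifiers whose groups did not overlap was 0.806% for amygdala, 0.0306% for hippocampus, 0.0372% for occipital and 0.043% for prefrontal cortex.

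**Figure D2:**
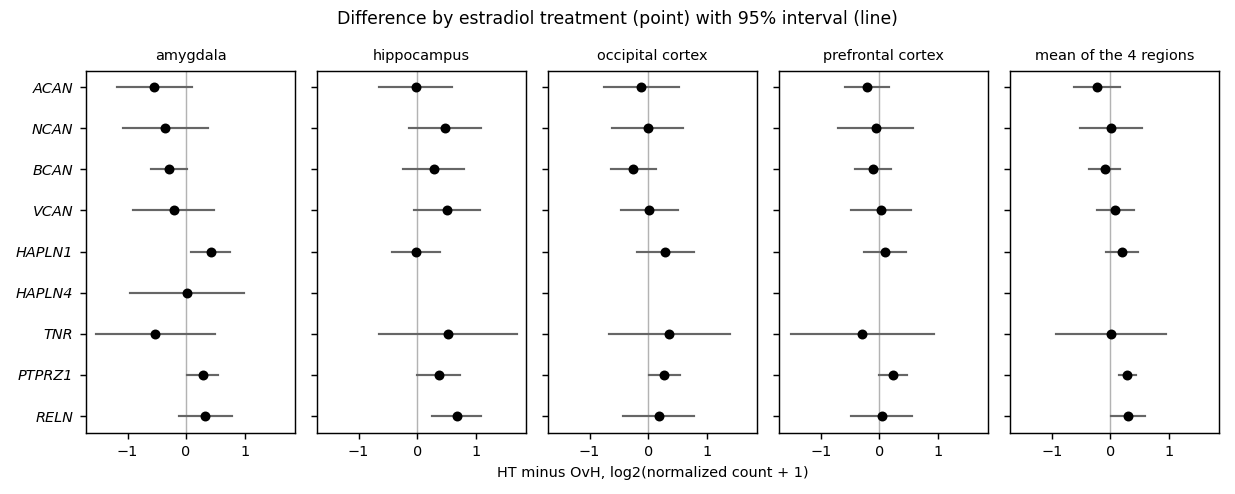
Difference between HT and OvH on the log2(normalized count + 1) scale for each member, as the limma estimate (point) with its 95% interval (line), in the 4 regions and for the mean of the 4 regions of each animal. PTPRZ1 lay right of 0 in all panels, with differences from 0.24 to 0.37 within regions, while TNR had the widest intervals.

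Among the lecticans, ACAN had the lowest counts. In amygdala it ranged from 31.98 to 91.02 (median 53.3) in HT and from 43.35 to 151.5 (median 86.26) in OvH, from 21 to 253 reads per library. In this region 6 of 7 HT animals lay below the OvH median, and the ranges overlapped. The log2 difference was -0.54 ± 0.30 (SE; 95% interval -1.18 to 0.10; adjusted p = 0.324). In the other regions it was -0.03 (hippocampus), -0.12 (occipital) and -0.21 (prefrontal), each with an interval that held 0.

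BCAN in amygdala ranged from 7772 to 12836 (median 8564) in HT and from 8817 to 14888 (median 10291) in OvH. The highest HT value was that of animal 39, and 4 of the 7 HT values lay below every OvH value. The log2 difference was -0.30 ± 0.15 (SE; adjusted p = 0.25), and -0.51 with equal totals (adjusted p = 0.0561; over the alternatives 0.0561 to 0.444). BCAN differed by 0.28 in hippocampus, where its sign turned without animals 30 and 43 (-0.07), by -0.25 in occipital cortex and by -0.10 in prefrontal cortex.

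NCAN in amygdala ranged from 1893 to 4583 (median 3520) in HT and from 1166 to 8284 (median 5777) in OvH, with the lowest value of all in OvH animal 32. No HT animal was above the OvH median, but the OvH range enclosed the HT range, and the log2 difference was -0.35 ± 0.34 (SE; adjusted p = 0.603). It was -0.01 with the myelin covariate, -0.63 by edgeR, -0.57 with equal totals, -0.67 without animal 32 and -0.20 without animal 35. In hippocampus the order was the other way, with all 7 HT animals above the OvH median of 5399 and a log2 difference of 0.48 (95% interval -0.14 to 1.10). VCAN, the lectican also made by oligodendrocyte precursors and fibroblasts, differed by -0.21 in amygdala, 0.51 in hippocampus (95% interval -0.05 to 1.08), 0.02 in occipital cortex and 0.03 in prefrontal cortex. The amygdala value was -0.43 with equal totals, -0.35 with the myelin covariate, -0.06 by DESeq2 and 0.02 without animal 38. There its HT values were the more scattered, from 444.4 to 2303 against 896.4 to 1880 in OvH.

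The link protein HAPLN1, which ties lecticans to hyaluronan, had the smallest p of the members in amygdala. It ranged from 1041 to 1724 (median 1162) in HT and from 711.6 to 1270 (median 921) in OvH. All 7 HT values lay above the OvH median and 2 lay above every OvH value. HT minus OvH came to 0.42 ± 0.16 on the log2 scale (SE; 95% interval 0.09 to 0.75; adjusted p = 0.123). With libraries scaled to equal totals, which moved the median of all amygdala identifiers from 0.01 to -0.20, it was 0.21. HAPLN1 differed by -0.02 in hippocampus, 0.29 in occipital and 0.10 in prefrontal cortex.

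HAPLN4, a link protein of the brain that works with brevican, could be read in amygdala alone. It ranged from 359.9 to 4516 (median 817.2) in HT and from 382.8 to 1839 (median 821.2) in OvH, so the medians nearly matched. Animal 39 held the highest HT value, and the next was 1197. HT minus OvH came to 0.01 ± 0.46 on the log2 scale (SE; adjusted p = 0.995), and its interval of -0.97 to 0.98 spans large differences in both directions.

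TNR, the crosslinker, had the widest intervals of the members. In amygdala it ranged from 387.4 to 2481 (median 1361) in HT and from 351.8 to 4066 (median 2271) in OvH. The lowest values of both groups were near each other, and the OvH range enclosed the HT range. The log2 differences were -0.53 ± 0.48 (SE) in amygdala, 0.53 in hippocampus, 0.36 in occipital and -0.29 in prefrontal cortex, all with intervals that held 0. The amygdala value was -0.16 with the myelin covariate, -0.93 without animal 32 and -0.24 without animal 40.

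PTPRZ1 was the member with HT above OvH in all 4 regions at a near-equal size. In amygdala it ranged from 17830 to 25797 (median 22483) in HT and from 12760 to 20886 (median 18857) in OvH, and 4 of the 7 HT values lay above every OvH value. In hippocampus the ranges were 11521 to 18516 (median 15697) and 7181 to 15508 (median 12138). In occipital cortex they were 8488 to 14261 (median 11441) and 7281 to 10314 (median 9167). In prefrontal cortex they were 7750 to 12762 (median 11345) and 7422 to 10626 (median 9368), and 6 of the 7 HT values lay above every OvH value. The log2 differences were 0.28 ± 0.13 (SE; adjusted p = 0.217) in amygdala, 0.37 ± 0.17 (adjusted p = 1) in hippocampus, 0.28 ± 0.13 (adjusted p = 0.999) in occipital cortex and 0.24 ± 0.11 (adjusted p = 1) in prefrontal cortex. The amygdala value was 0.07 with equal totals, where the median of all identifiers was -0.20, and 0.16 by edgeR.

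The libraries that stood apart in hippocampus moved several of these differences. Without animals 30 and 43 they were -0.07 for ACAN, 0.65 for NCAN, 0.33 for VCAN, 0.03 for HAPLN1, 0.99 for TNR and 0.285 for PTPRZ1. Without animals 33 and 40 they were -0.11 for ACAN, 0.48 for NCAN, 0.40 for BCAN, 0.54 for VCAN, 0.12 for HAPLN1, 0.55 for TNR and 0.43 for PTPRZ1. No member passed in either case.

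Averaging the log2 values of the 4 regions for each animal, a comparison added after the data were seen, gave PTPRZ1 means of 13.6 to 13.94 (median 13.79) in HT and 13.31 to 13.59 (median 13.53) in OvH. The groups did not overlap for PTPRZ1, as for 0.0666% of the 13520 identifiers tested. The log2 difference was 0.29 ± 0.07 (SE; 95% interval 0.14 to 0.44), with HT above the OvH median in 7 of 7 animals. It did not pass the limma adjustment over all identifiers (unadjusted p = 0.000668, adjusted p = 0.782). Neither did any of the others (0 of 8 members, 0% of identifiers). With an unadjusted p under 0.05 there were 2 of 8 members and 821 identifiers, or 6.1% of those tested. With any 1 animal left out the difference stayed between 0.26 and 0.32. With equal totals its amygdala part was smaller, as given above, and 0 of the 13520 identifiers passed for the mean. Whether the PTPRZ1 groups stay apart with equal totals was not examined. Of markers of cells that make PTPRZ1, 6 of 9 for astrocytes (median log2 difference 0.08) and 6 of 8 for oligodendrocyte precursors (0.04) were higher in HT, and 0 of either list passed. For meningeal fibroblasts 7 of 7 were higher (median 0.67) and for myelin 8 of 8 (0.27), also with 0 passing. Their part in the PTPRZ1 difference was not tested.

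RELN had its largest difference in hippocampus. There it ranged from 7781 to 18084 (median 15280) in HT and from 6971 to 12413 (median 8027) in OvH. In HT 6 of the 7 values lay above every OvH value, and animal 42, the lowest in HT, lay below the OvH median. The log2 difference was 0.67 ± 0.20 (SE; 95% interval 0.26 to 1.09). Its unadjusted p was 0.00359 and its adjusted p was 1, since 2.1% of all identifiers in hippocampus had an unadjusted p under 0.05. The difference was 0.56 without animals 30 and 43, 0.57 without animals 33 and 40, and 0.61 to 0.82 with 1 animal left out at a time. With the mean of the myelin markers as a covariate it was 0.43. In this comparison 4 of 15 markers of GABA neurons were higher in HT and 11 lower (median -0.22), with summed levels of 50770 to 69516 in HT and 46278 to 88474 in OvH. Of the myelin markers 8 of 8 were higher (median 0.46), and of the meningeal fibroblast markers 7 of 7 (median 0.76). The choroid plexus markers summed to 2139 to 1463193 in HT and 32.38 to 1326089 in OvH. Of the list for Cajal-Retzius neurons, the reelin cells of the developing brain, only TP73 was in the table.

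In the other regions RELN differed less. In amygdala it ranged from 5841 to 19116 (median 7711) in HT and from 5774 to 8804 (median 8007) in OvH, and the HT animals 37 and 39 lay above every OvH value. The log2 difference was 0.33 ± 0.22 (SE; adjusted p = 0.418), or 0.15 without animal 37, 0.11 with equal totals and 0.01 with the myelin covariate. Beside it, 11 of 12 myelin identifiers were higher in HT amygdala and 2 of them passed, where 6.89% of all identifiers did. Their summed levels were 790819 to 1614840 in HT and 354208 to 1250309 in OvH. In occipital cortex RELN ranged from 5042 to 11477 in HT and from 3077 to 14488 in OvH, and in prefrontal cortex from 5670 to 11529 and from 4677 to 17500. The highest values of these cortical ranges were those of OvH animals 33 and 31, and the log2 differences were 0.18 and 0.04.

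Whether the estradiol difference itself differed between regions was tested on within-animal differences. For amygdala minus the mean of the other regions 0 of 8 members passed (0% of 13520 identifiers), with 1 at an unadjusted p under 0.05. That member was TNR, with a log2 difference of -0.73 ± 0.19 (SE; 95% interval -1.12 to -0.33; adjusted p = 0.0609), from -0.53 in amygdala against positive values in 2 of the other 3 regions. It passed with equal totals (-0.95, adjusted p = 0.0488, where the median of all identifiers moved from 0 to -0.22), and without animal 30, 31, 32, 39 or 40 (adjusted p from 0.0243 to 0.049). The adjusted p was up to 0.147 without another animal. In this comparison 22.8% of all identifiers had an unadjusted p under 0.05. For hippocampus minus the mean of the cortical regions 0 of 8 members passed (0% of 16354), with RELN alone at an unadjusted p under 0.05 (0.57 ± 0.26, SE; adjusted p = 0.999). Of all identifiers 2.4% had an unadjusted p under 0.05 in that comparison.

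Between the regions outside the amygdala ACAN was highest in occipital cortex, and BCAN, VCAN, PTPRZ1 and RELN were highest in hippocampus. Hippocampus, occipital cortex and prefrontal cortex of the same 14 animals were compared in a limma fit that blocked on animal. Between hippocampus and occipital cortex 7 of 8 members passed, where 50.7% of all 16354 identifiers did. Of these 6 were higher in hippocampus (background 28.1%) and 1 was lower (background 22.6%), and the median log2 difference was 0.66 over the members and 0.03 over all identifiers. Between hippocampus and prefrontal cortex 6 of 8 passed (background 43.4%), with 5 higher (background 20.9%) and 1 lower (background 22.6%) in hippocampus. Over all identifiers this last split was 3412 higher and 3693 lower, and 2676 and 4427 with equal totals. Between occipital and prefrontal cortex 4 of 8 passed (background 47.9%), with 2 higher (background 19.7%) and 2 lower (background 28.2%) in occipital cortex, a share near the background. The 3 comparisons share libraries. The counts were the same without animals 30, 33, 40 and 43.

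**Figure D3:**
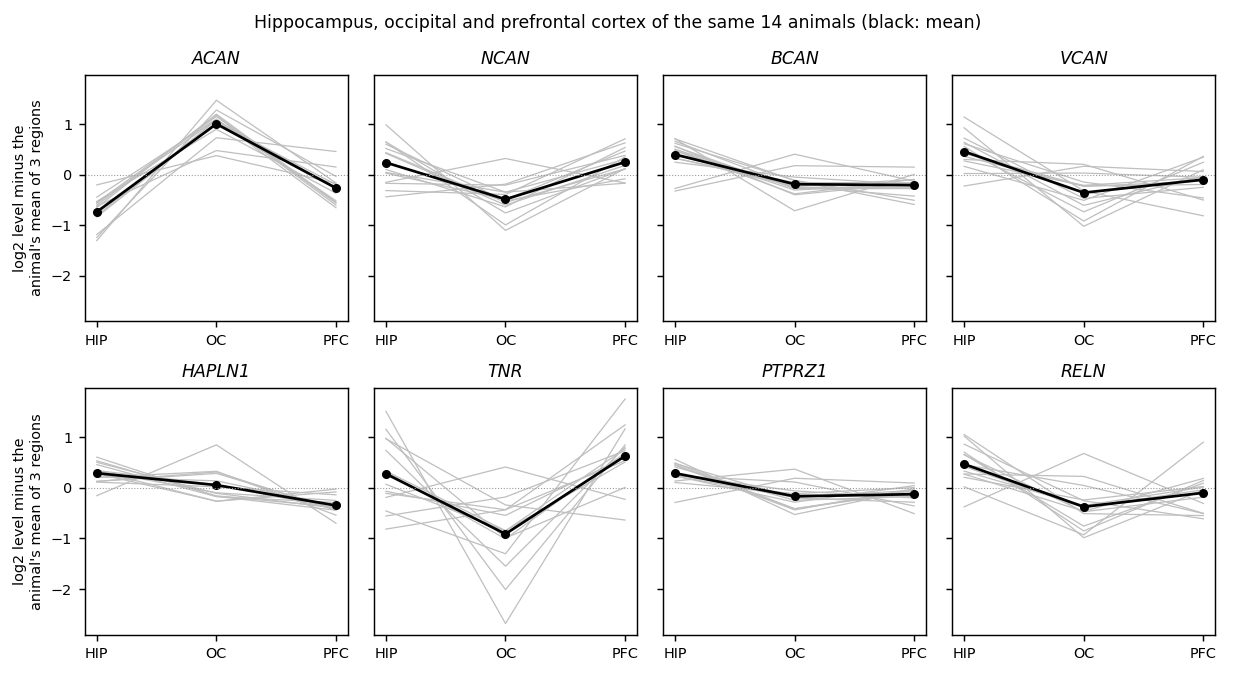
Level of 8 members in hippocampus (HIP), occipital cortex (OC) and prefrontal cortex (PFC) as log2(normalized count + 1) minus the mean of the animal's 3 regions, 1 grey line per animal and the mean in black. All 14 lines of ACAN peak in occipital cortex, and the lines of TNR spread most.

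ACAN was the member whose highest level outside the amygdala was in occipital cortex. Its row met the level limit of 2 but not a limit of 1 (difference 1.72), so its name outside the amygdala is only weakly shown. It ranged from 200.3 to 904.4 normalized counts (median 484.3) in occipital cortex, from 136.6 to 271.5 (median 172.7) in prefrontal cortex and from 75.93 to 264.1 (median 131.1) in hippocampus. In all 14 animals occipital cortex was above both other regions. This gave a log2 difference of -1.74 ± 0.14 (SE; adjusted p = 1.3e-11) for hippocampus minus occipital cortex and 1.27 ± 0.14 (adjusted p = 2.27e-08) for occipital minus prefrontal cortex. Hippocampus lay below prefrontal cortex in 12 of 14 animals (-0.47 ± 0.14; adjusted p = 0.00879). The order was thus occipital, prefrontal, hippocampus.

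Markers of GABA neurons, the cells that nets surround most, were lower in hippocampus than in occipital cortex for 9 of 15 markers past the threshold and higher for 3. Over all identifiers 22.6% passed as lower and 28.1% as higher. GAD1, which makes GABA, differed by -0.80 between hippocampus and occipital cortex and by 0.29 between occipital and prefrontal cortex. PVALB, which encodes parvalbumin, differed by 0.04 (adjusted p = 0.796) and 0.31 (adjusted p = 0.0178). PVALB was higher in hippocampus than in prefrontal cortex (0.34, adjusted p = 0.00955), the opposite of ACAN. On the same list KCNC1 differed by -2.07 and 1.13 (adjusted p = 1.75e-13 and 1.24e-07) and SYT2 by -2.04 and 1.29 (adjusted p = 1.25e-09 and 8.25e-06). KCNC2 differed by -0.60 and -0.33 (adjusted p = 0.00155 and 0.0755). Between occipital and prefrontal cortex 6 of the 15 markers passed as higher (background 19.7%) and 3 as lower (background 28.2%). Their part in the ACAN difference was not tested.

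BCAN and VCAN were higher in hippocampus than in either cortex, while ACAN was lower there than in both. BCAN ranged from 8153 to 29346 (median 18062) in hippocampus, from 6122 to 16715 (median 12099) in occipital cortex and from 8923 to 17713 (median 10789) in prefrontal cortex. It was higher in hippocampus than in either cortex in 12 of 14 animals (0.59 ± 0.12 and 0.61 ± 0.12, SE; adjusted p = 0.00013 and 0.000141), and the cortices were not told apart (0.02; 95% interval -0.23 to 0.26). VCAN had medians of 1956, 1035 and 1103 in hippocampus, occipital and prefrontal cortex, and differed by 0.81 ± 0.16 and 0.56 ± 0.16 between hippocampus and each cortex, with 12 of 14 animals higher in hippocampus both times. NCAN had medians of 7094, 4188 and 7315. It was lower in occipital cortex, with log2 differences of 0.73 for hippocampus minus occipital and -0.74 for occipital minus prefrontal cortex, while hippocampus and prefrontal cortex were not told apart (-0.01; 95% interval -0.33 to 0.31). So BCAN and VCAN were high in hippocampus, NCAN low in occipital cortex, and ACAN high in occipital cortex.

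Of the other members, HAPLN1 stepped down from hippocampus (320.9 to 681.2, median 501.8) to occipital cortex (287.7 to 739, median 395.8) and prefrontal cortex (219.5 to 425.3, median 327). Hippocampus exceeded prefrontal cortex in all 14 animals (0.64 ± 0.11, SE; adjusted p = 3.63e-05) and occipital exceeded prefrontal cortex in 12 (0.40 ± 0.11; adjusted p = 0.00409). Hippocampus and occipital cortex differed by 0.24 (adjusted p = 0.084), or by 0.33 without animal 40 (adjusted p = 0.00432). TNR had medians of 1965, 894.3 and 3410 and was lowest in occipital cortex, with log2 differences of 1.19 ± 0.30 for hippocampus minus occipital and -1.54 ± 0.30 for occipital minus prefrontal cortex. Its hippocampus and prefrontal cortex differed by -0.35 (95% interval -0.97 to 0.26).

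PTPRZ1 was higher in hippocampus (median 13579) than in occipital (9798) and prefrontal cortex (10417), by 0.46 ± 0.10 in 12 animals and 0.42 ± 0.10 in 13 (SE; adjusted p = 0.000292 and 0.00121). RELN was likewise higher in hippocampus (median 12186) than in occipital (5802) and prefrontal cortex (7087), by 0.84 ± 0.18 in 13 animals and 0.57 ± 0.18 in 12 (adjusted p = 0.000239 and 0.0119). Neither told the cortices apart (-0.04 with a 95% interval of -0.25 to 0.16, and -0.28 with -0.65 to 0.09). Beside these genes, microglia markers were higher in hippocampus for 7 of 7 against each cortex, and of 9 astrocyte markers 4 passed as higher against occipital cortex, and 5 as higher and 1 as lower against prefrontal cortex. Of 8 myelin markers 0 passed against occipital cortex (median 0.28) and 6 passed as higher against prefrontal cortex (median 0.67). Of 12 pan-neuronal markers 1 passed as higher and 7 as lower against occipital cortex, and 0 as higher and 5 as lower against prefrontal cortex. Over all identifiers 28.1% passed as higher and 22.6% as lower in hippocampus against occipital cortex, and 20.9% and 22.6% against prefrontal cortex. Markers of choroid plexus summed to at most 3128 in occipital and 640.4 in prefrontal cortex. Their part in the region differences was not tested.

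TNR spread widely between animals in every region, as did HAPLN4 in amygdala (12.6-fold). From the lowest to the highest library TNR spanned 11.6-fold in amygdala, 12.4-fold in hippocampus, 9.1-fold in occipital cortex and 12.8-fold in prefrontal cortex, against 1.72-fold to 2.58-fold for PTPRZ1. Animal 32 (OvH) was among the 2 lowest of 14 in amygdala, hippocampus and prefrontal cortex, and animal 40 (HT) in amygdala, occipital cortex and prefrontal cortex. In prefrontal cortex these were at 431.7 and 453.4, and the next animal was at 1513.

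An animal's deviation from its group mean in amygdala was set against its mean deviation in the other 3 regions, for 8 members with p-values adjusted over the 8. For TNR Pearson's r was 0.94 (permutation p = 1e-05, the smallest that 100000 permutations can give; adjusted 8e-05) and Spearman's rho 0.90 (permutation p = 2e-05; adjusted 0.00016), and r was 0.86 without animals 32 and 40. For NCAN r was 0.69 (permutation p = 0.00743; adjusted 0.0297) and rho 0.38 (permutation p = 0.217; adjusted 0.657), and r was 0.14 without those animals, so the relation rests on them. The other 6 members had r between -0.19 and 0.30. Over the 13520 identifiers that met the level limit the median r was 0.39 (quartiles 0.11 and 0.62), and 0.04 over those that did not. The r of TNR was at the 99.2 percentile of identifiers. The order of animals still changed between single regions: animal 38 ranked 5 of 14 from the lowest in amygdala, 12 in hippocampus, 13 in occipital and 3 in prefrontal cortex.

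**Figure D4:**
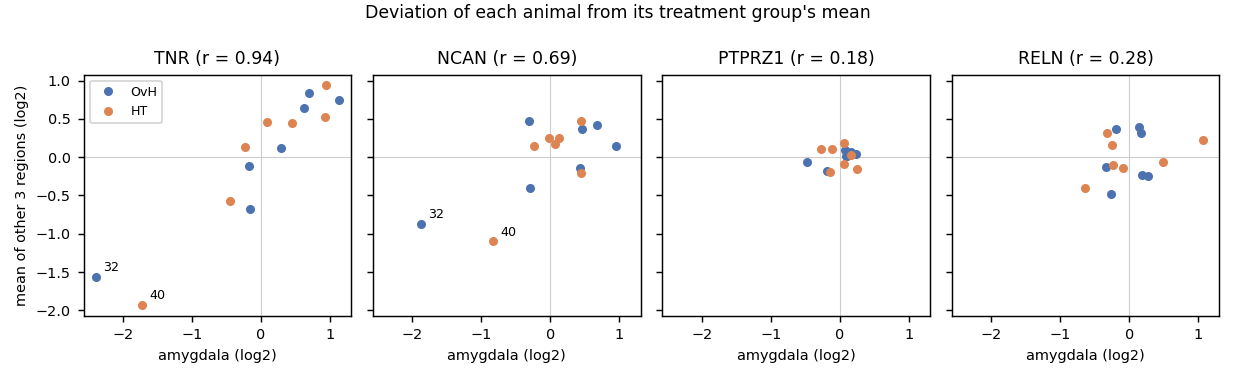
Deviation of each animal from the mean of its treatment group (log2) in amygdala (horizontal) and averaged over the other 3 regions (vertical), for TNR, NCAN, PTPRZ1 and RELN, OvH in blue and HT in orange. TNR lies along a line (r = 0.94) with animals 32 and 40 at its low end, while PTPRZ1 (r = 0.18) and RELN (r = 0.28) do not.

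TNR and NCAN also followed the leading axis of variation among the libraries of a region, the first principal component of all identifiers tested there, which held 23.6% of the variance in amygdala, 33.6% in hippocampus, 28.6% in occipital and 32.6% in prefrontal cortex. Its sign was set so that TNR is positive, and the members are among the identifiers it was computed from. Of the 33 relations between members and axes, adjusted together, TNR had r of 0.92, 0.76, 0.71 and 0.99 in these regions (permutation p = 2e-05, 0.00076, 0.00332 and 1e-05; adjusted 0.00033, 0.00358, 0.0122 and 0.00033; rho 0.88, 0.92, 0.71 and 0.87, all permutation p for rho adjusted to at most 0.0205). Without the 2 libraries farthest out in each region r was 0.80, 0.97, 0.73 and 0.95. NCAN had r of 0.88, 0.60, 0.94 and 0.92 (permutation p = 5e-05, 0.0223, 4e-05 and 6e-05; adjusted 0.000396, 0.0668, 0.000396 and 0.000396; rho 0.71, 0.76, 0.89 and 0.76, with permutation p adjusted to at most 0.0205), and 0.68, 0.92, 0.75 and 0.65 without those libraries. Of the other members ACAN passed in occipital cortex (r = 0.85, permutation p adjusted to 0.000495; rho 0.77, adjusted 0.0116; 0.76 without the 2 farthest). BCAN passed by r in occipital cortex (0.78, permutation p adjusted to 0.0112) and hippocampus (-0.68, permutation p adjusted to 0.0359), but not by rho (0.49 and -0.13, permutation p adjusted to 0.225 and 0.727), and r was 0.20 in both without the 2 farthest, so those relations rest on them. In amygdala 6 of 7 OvH libraries had positive coordinates and 6 of 7 HT libraries negative ones, so this axis and treatment are partly aligned there. With the axis as a covariate, an alternative added after the data were seen, the amygdala differences became 0.30 for TNR and 0.21 for NCAN, and HAPLN1 (0.51) and PTPRZ1 (0.37) came to adjusted p = 0.0513 and 0.0703. The axis touches many genes: the median size of r over all identifiers was 0.42, 0.49, 0.52 and 0.49 in the 4 regions. An r as large as that of TNR was reached by 2% of identifiers in amygdala and 0.2% in prefrontal cortex, but by 19.1% in hippocampus and 29% in occipital cortex. For NCAN the shares were 3.8%, 37.9%, 3.5% and 6% in the order above, and for ACAN in occipital cortex 13.9%. What the axis stands for was not tested.

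Within amygdala the deviations of the members were compared pair by pair. Over the 36 pairs of members, r of the deviations in 14 libraries ran from -0.63 to 0.83, and 0 pairs passed after adjustment. The highest was NCAN with TNR (r = 0.83, permutation p = 0.00223, adjusted 0.0803; rho 0.60, permutation p = 0.0253, adjusted 0.455), which came to 0.39 without animals 32 and 40. The lowest was BCAN with HAPLN1 (r = -0.63, permutation p = 0.0277, adjusted 0.375; rho -0.65, permutation p = 0.0178, adjusted 0.455; -0.55 without animals 35 and 39). Leaving out animals moved other pairs away from 0. NCAN with BCAN went from 0.09 to 0.66 without animals 32 and 40, and BCAN with PTPRZ1 from -0.15 to -0.74 without animals 35 and 39. With 14 libraries, pairs that did not pass may still be related. In the RefSeq annotation of the assembly T2T-MMU8v2.0 each lectican gene lies beside a link protein gene: ACAN beside HAPLN3, NCAN beside HAPLN4, BCAN beside HAPLN2 and VCAN beside HAPLN1. The neighbours NCAN and HAPLN4 had r = -0.05 and VCAN and HAPLN1 r = -0.15.

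The symbols whose deviations in the 14 amygdala libraries were most like those of ACAN, among 12577 compared, were NCAPD2 (r = 0.84), GAD2 (0.84), KIDINS220 (0.82), JAK1 (0.80) and METTL13 (0.80). GAD2 makes GABA. For RELN they were ZNF174 (0.93), PLCL1 (0.91), MYO1D (0.87), BRD8 (0.87) and NEK4 (0.85). For TNR, added after its values were seen, they were VPS13D, ERC1 and TANC2 (0.99 each), SRGAP3 and WNK3 (0.98 each). These genes were picked for their r, so no test applies.

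Around the members, 4 lists of related genes were read for treatment. For amygdala these counts stand beside the 6.89% of all identifiers that passed there. Of 21 net and matrix partners tested in amygdala, 0 passed as higher and 1 as lower (median -0.28, against 0.01 over all identifiers): SPOCK2, a matrix proteoglycan also called testican-2, at 14702 ± 3908 in HT and 23601 ± 4550 in OvH (SD, n = 7 each; log2 difference -0.70, adjusted p = 0.0188). It was not past the threshold with the myelin covariate (adjusted p = 0.114) or without animal 33 (adjusted p = 0.0516). Of 19 matrix proteases and inhibitors, 1 passed as higher and 0 as lower (median -0.01): CTSS, the microglial protease cathepsin S, at 1456 ± 275 in HT and 890 ± 135 in OvH (log2 difference 0.70, adjusted p = 0.00899, or 0.0818 with the myelin covariate). Beside CTSS, 1 of 8 microglia markers passed as higher, and the list's summed levels were 18904 to 27234 in HT and 15830 to 37170 in OvH.

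Of 20 genes of chondroitin sulfate synthesis tested in amygdala 0 passed by limma, where 6.89% of all identifiers did. Of the 20, 5 had an unadjusted p under 0.05, beside 21.5% of all identifiers (median -0.26). CHST11, a sulfotransferase that builds the main adult form of the chains, had the smallest p, at 431 ± 85.0 in HT and 602 ± 44.4 in OvH (log2 difference -0.50, adjusted p = 0.0548). It passed by edgeR (adjusted p = 0.0374) and DESeq2 (adjusted p = 0.00788). Of 18 reelin signalling genes 1 passed as higher and 0 as lower (median -0.11): RNF7, part of the ubiquitin ligase that degrades activated DAB1, at 8253 ± 1723 in HT and 4620 ± 681 in OvH (log2 difference 0.82, adjusted p = 0.00757).

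Outside the amygdala 0 genes of the 4 lists passed by limma in any region. At an unadjusted p under 0.05 there were 1 of 14 net partners and 3 of 17 chondroitin sulfate genes in prefrontal cortex. The share of all identifiers there was 3.7%. Of the proteases and inhibitors, 2 of 15 were under it in hippocampus (2.1% of all identifiers) and 1 of 16 in occipital cortex (1.9%). Of 15 reelin signalling genes 0 had an unadjusted p under 0.05 in hippocampus, where 2.1% of all identifiers did. A count of 0 is near that share. RELN had its largest difference in this region, and DAB1 differed by 0.37 there. ADAMTS3, a protease that cleaves reelin, was at 1078 ± 208 in HT and 690 ± 216 in OvH hippocampus (log2 difference 0.68, adjusted p = 1). In prefrontal cortex PTN (pleiotrophin), a ligand of PTPRZ1, was at 9513 ± 891 in HT and 7674 ± 842 in OvH (log2 difference 0.31, adjusted p = 1).

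Between regions single genes of these lists passed. DAB1 was higher in hippocampus (1628 ± 649, SD, n = 14) than in occipital (480 ± 140) and prefrontal cortex (885 ± 338), with log2 differences of 1.70 and 0.91 (adjusted p = 6.17e-11 and 1.56e-05). The receptor LRP8 was lower in hippocampus than in prefrontal cortex (-0.58, adjusted p = 0.000661). ADAMTS3 was higher in hippocampus than in occipital cortex by 2.21 and in prefrontal than in occipital cortex (-1.38 for occipital minus prefrontal). Of 15 reelin signalling genes 5 passed as higher and 1 as lower in hippocampus against occipital cortex, beside a background of 28.1% and 22.6%.

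Of 14 net and matrix partners 5 passed as higher and 3 as lower in hippocampus against occipital cortex, shares near the background of 28.1% and 22.6%. NPTX2, a synaptic pentraxin, differed by 2.02, CD44, a hyaluronan receptor, by 1.59, and TNC, the relative of TNR, by 1.18. Of those lower, SEMA3A, a guidance molecule that binds nets, differed by -1.43. Of 17 chondroitin sulfate genes 8 passed as higher and 3 as lower (background 28.1% and 22.6%), among them DSE (1.51), the epimerase that makes dermatan sulfate, and CSGALNACT1 (-1.75), which starts the chains.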

How the data were processed

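The tools STAR 2.7.3a, edgeR 3.28.0, Trimmomatic and FastQC 0.1.1.2 and the rhesus build Mmul_10 are named, per the submitters' processing notes, without their settings. The counter, its strand setting and the annotation are not given in the sources used here. The authors deposited 1 table of normalized signal per Ensembl identifier and library, scaled to the same upper quartile. All values (100%) came within 0.01 of whole reads once the scaling of each library was undone, which gave the read totals.

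The main test was limma 3.58.1 (R 4.3.3) on log2(value + 1), with intensity trend and Benjamini-Hochberg adjustment over all identifiers with a mean of at least 10. A fold on this scale understates that of low genes. Treatment was compared within each region, regions with the animal as a block, and differences of treatment effect on within-animal differences. The pairing comes from the animal numbers in the labels (consensus correlation within animals 0.184). The tests were also run on simulated data in which genes varied independently. Those data lack the shared variation of these libraries, so nothing is concluded from them. Alternatives were edgeR 4.0.16 and DESeq2 1.42.0 on recovered reads, equal totals, a pseudocount of 10, no filter, no intensity trend, a myelin covariate, other blocks and left-out animals. Correlations between regions or genes used deviations from group means, permuted within treatment groups. Those with the first component used log2 values permuted over all 14 animals (100000 permutations each).

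The members and lists were chosen with earlier results of these data known. Named genes were the 9 members, up to 5 list genes per direction past the threshold (otherwise up to 3 with the smallest p, as values), and the 5 symbols most correlated with ACAN and with RELN in amygdala among those with a mean of at least 100. Of these only a selection is printed. The labels name 1 animal per library, so limma p-values for treatment measure the spread between animals. Those of the region comparisons rest on the spread left within animals after the block. No transcript lengths were used, so levels are not compared between genes, and antisense overlaps were not examined.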

Additional observations from a re-analysis of the deposited data

Results flagged for a closer look

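In groups of 7, 6 of the 66 groups examined held a library far from its neighbours, by Dixon's criterion at the 95% level. The criterion was applied to normalized counts, not to the log2 values used in the tests, and the list holds for that scale only. How often chance marks a group of such counts was not tested, so the 6 groups are not compared with a chance rate. In HT amygdala animal 39 was highest for both BCAN (12836, next 9159) and HAPLN4 (4516, next 1197). In OvH occipital cortex animal 34 was highest for HAPLN1 (715.1, next 397.5) and animal 33 for RELN (14488, next 7764). In OvH prefrontal cortex animal 31 was highest for RELN (17500, next 9608). In HT prefrontal cortex animal 40 was lowest for PTPRZ1 (7750, next 10738).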

How the results depend on the processing

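No member passed for treatment within a region under any alternative run. The count for amygdala minus the other regions was 1 with equal totals, and 0 to 1 with 1 animal left out. The region counts were 7 to 8, 6 to 6 and 4 to 4 with 1 animal left out, in the order hippocampus against occipital, hippocampus against prefrontal, occipital against prefrontal. With the replicate block over all regions, the amygdala adjusted p was 0.15 for HAPLN1 and 0.226 for PTPRZ1, and without it TNR had adjusted p = 0.656 for the difference between regions. The block changed no member's call. Over all identifiers, amygdala calls (1112) became 1732 by DESeq2, 384 with the myelin covariate and 1808 with the first component, and calls for amygdala minus the others (0) became 505 with equal totals and 267 without the block.

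Signs turned for uncalled values as follows. In amygdala HAPLN4 was -0.20 with equal totals, -0.50 with the myelin covariate and -0.17 with the first component, where NCAN was 0.21 and TNR 0.30. In hippocampus HAPLN1 was 0.003 with equal totals, 0.11 with the myelin covariate, 0.033 without animals 30 and 43 (BCAN -0.065) and 0.12 without 33 and 40. In occipital cortex NCAN was 0.074 by edgeR, 0.076 by DESeq2, 0.001 with equal totals, 0.02 with the myelin covariate and 0.12 with the first component. In prefrontal cortex VCAN was -0.062 by edgeR and -0.065 by DESeq2, RELN -0.069 and -0.075, and NCAN 0.053 with the first component. For hippocampus against prefrontal cortex NCAN was 0.024 by edgeR and 0.079 without 4 animals. For occipital against prefrontal cortex PTPRZ1 was 0.014 by edgeR, and BCAN -0.011 with equal totals and -0.004 without 4 animals. RELN for amygdala minus the others was -0.19 with equal totals. For the mean of 4 regions NCAN was -0.032 and TNR -0.028 with equal totals, and VCAN -0.049 without 30 and 43. PVALB between hippocampus and occipital cortex was -0.001 with equal totals. The cause was not tested.

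With 1 animal left out, signs also turned within these ranges. In amygdala VCAN ran from -0.374 to 0.021 and HAPLN4 from -0.38 to 0.23. In hippocampus ACAN ran from -0.16 to 0.14 and HAPLN1 from -0.129 to 0.052. In occipital cortex ACAN ran from -0.309 to 0.063, NCAN from -0.11 to 0.27 and VCAN from -0.086 to 0.133. In prefrontal cortex NCAN ran from -0.30 to 0.12, VCAN from -0.055 to 0.217, TNR from -0.735 to 0.093 and RELN from -0.072 to 0.246. NCAN for hippocampus against prefrontal cortex ran from -0.078 to 0.071, BCAN for occipital against prefrontal from -0.02 to 0.076, and PVALB for hippocampus against occipital from -0.021 to 0.128. For amygdala minus the others PTPRZ1 ran from -0.083 to 0.05 and RELN from -0.11 to 0.14, and PTPRZ1 for hippocampus minus cortex from -0.029 to 0.184. For the mean of 4 regions NCAN ran from -0.17 to 0.19 and TNR from -0.28 to 0.33. ACAN in amygdala had the fewest reads (21 to 253 per library).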
